A study of Mus musculus with 6 samples.

Results

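The serum amyloid A genes Saa1, Saa2, Saa3 and Saa4 and the pentraxin genes Apcs and Crp were followed in mouse liver during colorectal cancer progression. They were chosen by gene symbol, and all 6 were found among the 20140 genes of the count table and passed the filter on low counts, as did 16370 genes in all. Bulk RNA was sequenced from whole livers on day 21, with 2 livers in each of 3 groups. The sham group carries the label control and was given PBS and no tumor cells. The intra-C and intra-S groups received CT26 cells, a mouse colorectal carcinoma line of BALB/c origin. The labels give only the names intra-C and intra-S, and the study's methods describe orthotopic implantation into the cecum, which models the premetastatic niche (PMN), and intrasplenic injection, which models liver metastasis. The mice were of the BALB/c strain, carried no engineered allele as far as the methods tell, and were bought at 6 to 10 weeks of age. Group and route of implantation changed together, so that the tumor and its site cannot be told apart. Tumor cells in an intra-S liver carry the same mouse genes, and each value sums over all cells of the liver.

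Serum amyloid A proteins are small apolipoproteins that travel on high-density lipoprotein (HDL). Saa1 and Saa2 encode the acute-phase forms that hepatocytes secrete during inflammation, and acute-phase serum amyloid A is the precursor of the fibrils of AA amyloidosis. Saa3 is also made outside hepatocytes, for instance by macrophages and adipocytes, and Saa4 encodes the form that is known as constitutive. Pentraxins are ring-shaped plasma proteins that bind calcium, microbial surfaces and dying cells and recruit complement. Apcs encodes serum amyloid P component, the main acute-phase pentraxin of the mouse, and Crp encodes C-reactive protein, which is the main one in humans and is known as a weak responder in mice. IL-6 acting through gp130 and STAT3, together with IL-1 acting through NF-kappaB and with the C/EBP factors, is the textbook route by which the liver turns these genes on.

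Each library held between 32838321 and 43368309 counts, and the 6 genes had at least 133 counts in every liver. Levels are given as CPM (counts scaled to a fixed library total, after edgeR's TMM correction of the totals) for comparisons of a gene between livers. They are given as the deposited TPM, which is also scaled by gene length, for comparisons between genes. Differences were tested by the quasi-likelihood method of edgeR in 1 fit over the 6 livers, and a gene was called at a Benjamini-Hochberg adjusted p under 0.05 over all 16370 genes. With 2 livers against 2, an exact permutation test of a single gene cannot go below a two-sided p of 0.333. The liver label held against its markers: all 12 hepatocyte markers had counts in every liver, and their summed level lay between 104251 and 183413 CPM. The intra-S livers were the least alike, with a Pearson correlation of log2 CPM across genes of 0.869, against 0.970 between the intra-C livers and 0.986 between the sham livers. Nothing in the labels tells how mice were housed or handled together, so the spread between livers may be biological or technical. In bulk liver, fewer cells of a type and less RNA per cell cannot be told apart.

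The 4 amyloid A genes lie side by side on chromosome 7 of GRCm38.p6 (mm10), over 42316 bases. Saa3 spans chr7:46711998-46719615, Saa4 chr7:46727992-46732603 and Saa1 chr7:46740497-46743181, all on the minus strand, and Saa2 spans chr7:46751833-46754313 on the plus strand, so that Saa1 and Saa2 lie head to head and are transcribed away from each other. The pentraxin genes lie on chromosome 1, Crp at chr1:172698056-172699966 on the plus strand and Apcs at chr1:172893961-172895054 on the minus strand. The coding transcripts used for the comparison of sequences have 4 exons in the amyloid A genes and 2 in the pentraxin genes. Saa1 and Saa2 are near copies, with 348 identical bases among the 366 coding bases (95.1%), and their longest identical coding run is 73 bases. Saa1 shares 75.9% of aligned coding columns with Saa3 and 65.0% with Saa4, while Apcs and Crp share 58.8%. The stretch that separates Saa1 from Saa2 best is shown here, because it holds 7 of their 18 coding differences, marked in capitals, in coding bases 90 to 149.
Saa1: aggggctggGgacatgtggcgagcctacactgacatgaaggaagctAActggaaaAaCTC
Saa2: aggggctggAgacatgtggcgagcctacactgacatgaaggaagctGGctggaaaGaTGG
Of the 50-base windows of the Saa1 transcript, 13.2% also occurred in Saa2, and no window of 100 bases did. The authors kept uniquely aligned reads, so that a short read from a shared stretch would have been dropped. The read length is not given in the sources used here, the reference genome is of another strain than BALB/c, and the split of reads between these genes is uncertain to that extent. Summed to a single row, Saa1 and Saa2 gave log2 fold changes of 8.29 (standard error 1.55, adjusted p = 0.0326, edgeR) for intra-C against sham and 6.74 (standard error 1.45, adjusted p = 0.0368, edgeR) for intra-S against sham.

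The acute-phase genes Saa1 and Saa2 were low in sham livers and were among the most abundant transcripts of the intra-C livers. Saa1 was at 17.4 and 61.1 CPM in sham livers, 7567 and 12394 CPM in intra-C livers and 613 and 6515 CPM in the intra-S livers. Saa2 was at 7.39 and 32.1 CPM in sham livers, 6063 and 10866 CPM in intra-C livers and 182 and 5268 CPM in the intra-S livers. For both genes, every liver of a tumor-bearing group was above both sham livers, and both intra-C livers were above both intra-S livers. Of all tested genes, 34.4% were higher without overlap in intra-C and 30.4% in intra-S against sham, and 21.5% lower in intra-S against intra-C. The same shares stand beside what is said on overlap for the other genes below. The intra-S livers were far apart, with replicate 2 at 10.6 times replicate 1 for Saa1 and 28.9 times for Saa2. The sham livers also differed, by 3.52 times for Saa1 and 4.34 times for Saa2. By TPM, Saa2 ranked 5 and Saa1 ranked 6 among all genes of intra-C replicate 2, and they ranked 10 and 9 in replicate 1. In sham replicates 1 and 2, Saa2 ranked 3458 and 1250 and Saa1 ranked 2261 and 908, and in intra-S replicates 1 and 2, Saa2 ranked 254 and 10 and Saa1 ranked 100 and 11.

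**Figure D1:**
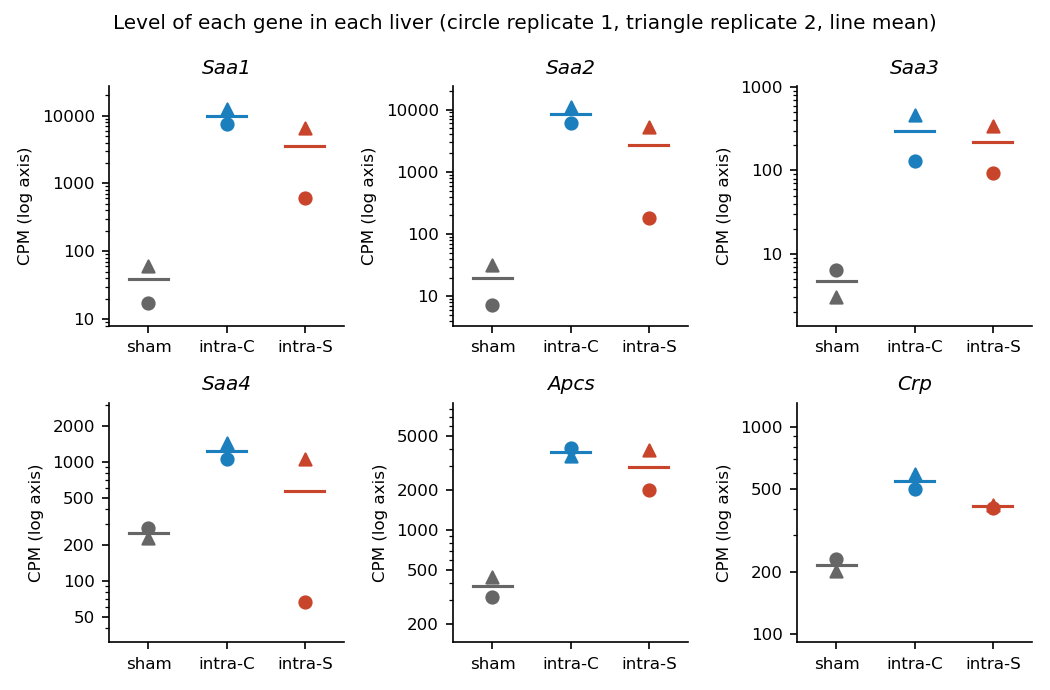
CPM of each of the 6 genes in each liver, on a log axis. Each panel is 1 gene, points are livers (circle for replicate 1, triangle for replicate 2), lines are means of 2 livers, and intra-S replicate 1 falls below the other tumor-bearing livers for Saa1, Saa2, Saa3, Saa4, Apcs and Crp, and below the sham livers only for Saa4.

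Saa3 rose as well and stayed below Saa1 and Saa2 by TPM in every liver. It was at 6.33 and 3.01 CPM in sham livers, 128 and 467 CPM in intra-C livers and 94.0 and 344 CPM in the intra-S livers. The sham livers did not overlap with any other liver, while the intra-C and intra-S livers overlapped. In each tumor-bearing group replicate 2 was the higher liver, by 3.64 times in intra-C and by 3.65 times in intra-S. Because macrophages, neutrophils and adipocytes can hold Saa3 transcripts, their markers stand beside these values. The summed level of the 11 macrophage and Kupffer cell markers was 222 and 225 CPM in sham livers and between 709 and 1265 CPM in the other livers. The 12 neutrophil markers summed to 3.87 and 5.12 CPM in sham livers, with Mpo, Elane and Camp at 0 counts in both, and to between 297 and 1110 CPM in the other livers. Only 2 of 7 adipocyte markers were in the table, and they summed to 6.32 and 7.59 CPM in sham livers and to between 14.9 and 149 CPM in the other livers. Most of this was Fabp4, at 4.71 and 3.85 CPM in sham and between 14.1 and 145 CPM in the other livers. The other marker, Cidec, did not rise, with log2 fold changes of -0.39 in intra-C and 0.03 in intra-S against sham. The part of these cells in the Saa3 values was not tested.

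Saa4, the constitutive form, had the highest TPM of the amyloid A genes in sham livers (298 and 246) and was the only one with a liver below them. It was at 278 and 230 CPM in sham livers, 1052 and 1438 CPM in intra-C livers and 66.6 and 1068 CPM in the intra-S livers. The intra-C livers did not overlap with the sham livers. Of the intra-S livers, replicate 2 lay within the range of the intra-C livers and replicate 1 lay at 0.262 times the sham mean, so that this group surrounded the sham group. Replicate 2 was at 16.03 times replicate 1.

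The pentraxin genes were more even between the livers of the tumor-bearing groups than the amyloid A genes, while in sham Saa4 was more even than Apcs. Apcs was at 319 and 447 CPM in sham livers, 4064 and 3567 CPM in intra-C livers and 1975 and 3955 CPM in the intra-S livers. Crp was at 232 and 201 CPM in sham livers, 502 and 595 CPM in intra-C livers and 409 and 420 CPM in the intra-S livers. Neither gene had a tumor-bearing liver within the range of the sham livers. The higher intra-S liver exceeded the lower by 2.00 times for Apcs and by 1.03 times for Crp, which made Crp the most even of the 6 genes in that group.

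The first comparison, intra-C against sham, asked how the liver of a mouse with a cecal tumor differed on day 21. Saa2 rose 429-fold, Saa1 254-fold and Saa3 63.8-fold in mean CPM, Apcs 9.97-fold and Crp 2.53-fold. Saa4 was 4.90-fold higher in mean CPM and did not pass the test. Thus 5 of the 6 genes were called higher and none lower, where 4.92% of all tested genes were called higher and 2.38% lower (806 and 389 genes). On library totals without TMM that split turned to 569 higher and 801 lower, while the same number of the 6 genes was called. In mean CPM, Saa1 went from 39.3 ± 31.0 to 9981 ± 3413 and Apcs from 383 ± 90.4 to 3816 ± 351 (SD, n = 2 livers each). The log2 fold change of Saa1 was 7.99 (95% interval 4.63 to 11.35, adjusted p = 0.0283, edgeR), and that of Saa2 was 8.74 (4.33 to 13.16, adjusted p = 0.0424, edgeR). Saa3 had a log2 fold change of 5.99 (3.64 to 8.35, adjusted p = 0.0235, edgeR). For Apcs it was 3.32 (2.35 to 4.29, adjusted p = 0.0118, edgeR) and for Crp 1.34 (0.84 to 1.85, adjusted p = 0.0214, edgeR). Crp thus changed least of the called genes, but with the narrowest interval. Saa4 had a log2 fold change of 2.29 with an interval from -0.25 to 4.84 (adjusted p = 0.222, edgeR).

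The livers of these groups did not overlap for any of the 6 genes, and they did not overlap in the same direction for 34.4% of all tested genes. Ranked by log2 fold change among the 16370 tested genes, Saa2 was at place 20, Saa1 at 36, Saa3 at 129, Apcs at 402, Saa4 at 868 and Crp at 1965. The median over the 6 genes was 4.66, against 0.01 over all tested genes. The calls needed all livers of these groups, since without any 1 of the sham or intra-C livers 0 of the 6 genes were called (edgeR adjusted p of 0.0667 and above), although their log2 fold changes stayed above 1. With any 1 liver left out, the log2 fold change ranged from 7.36 to 9.17 for Saa1, from 8.05 to 10.16 for Saa2 and from 4.80 to 6.65 for Saa3. Without either sham liver, edgeR called 0 genes of the whole table in both comparisons with sham. Fitted on these groups alone, Saa4 was called higher (2.30, adjusted p = 0.000883, edgeR), in a fit that called 2548 genes higher and 2223 lower over the whole table. With 1 intra-S liver in the fit its log2 fold change was 2.30 as well.

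**Figure D2:**
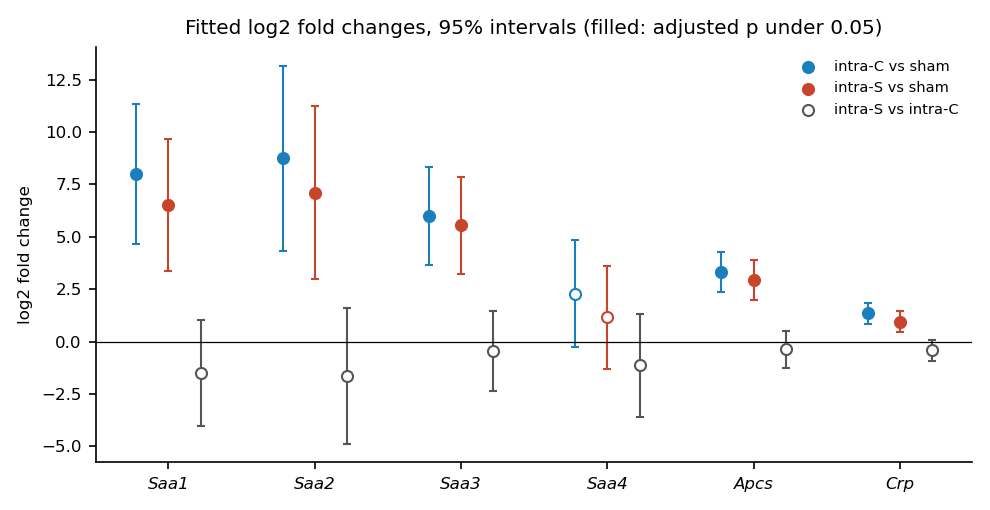
Log2 fold changes of the 6 genes from the edgeR fit for the 3 comparisons, with 95% intervals as bars. Filled points passed an adjusted p of 0.05; 5 of 6 did so in each comparison with sham, and all 6 points of intra-S against intra-C lie below 0 with intervals that include 0.

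The second comparison, intra-S against sham, asked how the liver differed after cells were injected into the spleen. It shares the sham livers with the first. Saa2 rose 138-fold, Saa1 90.8-fold and Saa3 46.8-fold in mean CPM, Apcs 7.74-fold and Crp 1.91-fold. Again 5 of the 6 genes were called higher, where 6.78% of all tested genes were called higher and 3.95% lower (1110 and 646 genes, against 838 and 1115 without TMM). The means hide a wide spread: relative to the sham mean, Saa2 was 9.23-fold higher in replicate 1 and 267-fold in replicate 2, and Saa1 was 15.6-fold and 166-fold higher. Apcs was 5.16-fold and 10.3-fold higher, and Crp 1.89-fold and 1.94-fold. The log2 fold change was 6.50 for Saa1 (95% interval 3.36 to 9.65, adjusted p = 0.0313, edgeR) and 7.11 for Saa2 (2.99 to 11.22, adjusted p = 0.0488, edgeR). It was 5.55 for Saa3 (3.25 to 7.85, adjusted p = 0.0216, edgeR) and 2.95 for Apcs (2.00 to 3.91, adjusted p = 0.0125, edgeR). Crp had a log2 fold change of 0.94 (0.43 to 1.44, adjusted p = 0.0403, edgeR). Saa4 had a log2 fold change of 1.16 with an interval from -1.30 to 3.62 (adjusted p = 0.486, edgeR).

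The livers did not overlap for 5 of the 6 genes, Saa4 being the exception, where 30.4% of all tested genes did not overlap in that direction. The median log2 fold change of the 6 genes was 4.25, against 0.04 over all tested genes. The calls of Saa2 and Crp were close to the threshold, and with library totals that were not scaled by TMM they were lost, at an adjusted p of 0.0510 and 0.107 (edgeR). Fitted on these groups alone, Saa1, Saa2 and Crp were lost, at an adjusted p of 0.0766, 0.103 and 0.0861 (edgeR). Without either sham liver 0 of the 6 genes were called, and without either intra-C liver only Saa3 and Apcs were. With intra-S replicate 1 as the lone intra-S liver, Saa1 still had a log2 fold change of 3.96 and Saa2 of 3.21. For Saa4 the direction depended on 1 liver. Without intra-S replicate 1 its log2 fold change was 2.08, and without replicate 2 it was -1.93.

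The third comparison set intra-S against intra-C. All 6 genes had a lower mean in the intra-S livers, and none was called. The ratio of mean CPM was 0.357 for Saa1, 0.322 for Saa2, 0.734 for Saa3, 0.456 for Saa4, 0.777 for Apcs and 0.755 for Crp. The log2 fold changes were -1.49 for Saa1 (95% interval -4.01 to 1.04, adjusted p = 0.552, edgeR) and -1.64 for Saa2 (-4.86 to 1.59, adjusted p = 0.609, edgeR). Those of Saa3, Saa4, Apcs and Crp were -0.45, -1.13, -0.36 and -0.41, with intervals that include 0 and edgeR adjusted p between 0.436 and 0.823. Intervals this wide leave room for both a several-fold drop and a rise of the amyloid A genes. Neither edgeR nor DESeq2 nor limma called any of the 6 genes here, and none had an unadjusted edgeR p under 0.05. In all, edgeR called 0 of 16370 genes (0%), 2193 (13.4%) had an unadjusted p under 0.05, and DESeq2 called 234 higher and 272 lower. The livers did not overlap for Saa1, Saa2 and Crp, where 21.5% of all tested genes did not overlap in the same direction. With intra-S replicate 1 as the lone intra-S liver, Saa1, Saa2, Saa4 and Apcs were called lower than in the intra-C livers, at log2 fold changes of -4.03, -5.54, -4.23 and -0.95, in a fit that called 1312 genes higher and 1572 lower over the whole table. With replicate 2 as the lone liver, 0 were.

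The 6 genes took a large share of the liver transcriptome when they were high. They held 0.0967% and 0.111% of all counts in sham livers, 1.75% and 2.89% in intra-C livers and 0.295% and 1.74% in the intra-S livers. The 95% Wilson intervals, which cover counting error only, were narrow, for example from 2.88% to 2.89% in intra-C replicate 2. Their makeup changed as well. In the sham livers Apcs made up 51.7% and 57.9% of their summed TPM, Crp 21.8% and 15.1%, with Saa4 just below Crp and with Saa1 and Saa2 together below Saa4. In the intra-C livers Saa1 made up 37.2% and 39.5%, Saa2 37.1% and 43.2%, Apcs 20.9% and 11.9%, and Crp 1.49% and 1.15%. Intra-S replicate 2 had 35.3% Saa1 and 35.6% Saa2, close to the intra-C livers. Intra-S replicate 1 had 18.5% Saa1, 6.87% Saa2 and 62.4% Apcs. Its shares of Saa1 and Saa2 lay between those of the sham and the intra-C livers, and its share of Apcs was the highest of all.

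**Figure D3:**
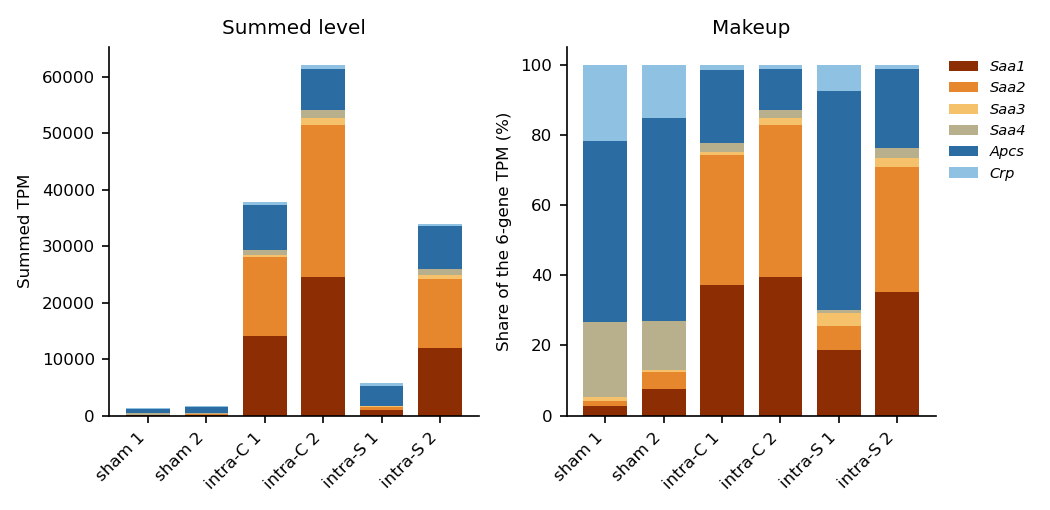
Summed TPM of the 6 genes in each liver (left) and the share of each gene in that sum in percent (right). The sum was 1410 and 1761 TPM in sham livers and 62140 TPM in intra-C replicate 2, and the share of Saa1 and Saa2 was largest in intra-C livers and in intra-S replicate 2.

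Ratios within a liver do not depend on the scaling of the library. The TPM of Saa1 relative to that of Saa2 was 1.88 and 1.53 in sham livers, 1.00 and 0.914 in the intra-C livers, and 2.70 and 0.991 in the intra-S livers. Saa1 was thus above Saa2 in both sham livers and in intra-S replicate 1, and near it in the other 3 livers. Saa3 came to 31.3% and 3.91% of the summed TPM of Saa1 and Saa2 in sham livers, 1.12% and 2.37% in intra-C livers and 14.7% and 3.45% in intra-S livers, so that its level beside them was most uneven in sham. The sum of Saa1 and Saa2 was below Saa4 in sham livers, at 0.195 and 0.897 times its TPM. It was 29.3 and 36.8 times Saa4 in intra-C livers and 25.7 and 25.003 times in the intra-S livers. In this ratio intra-S replicate 1 resembled replicate 2, because both its Saa4 and its Saa1 and Saa2 were low. Apcs was 2.38 and 3.83 times Crp by TPM in sham livers, 14.0 and 10.3 times in intra-C livers and 8.34 and 16.2 times in the intra-S livers. These ratios are descriptions of 6 livers and were not tested.

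Sequences before the start of these genes were read from the RefSeq promoter table (GRCm38.p6), which held all 6. The 250 bases before each start were searched on both strands for the C/EBP letters TTGCNNAA, which all 4 amyloid A genes held and neither pentraxin gene did. Of all 32851 promoters of the table, 9.56% held a match. The 30 bases around the matches are shown because they set the near copies Saa1 and Saa2 beside Saa3 and Saa4, with the match in capitals, each 5′ to 3′ on the strand of its gene. They are at chr7:46743144-46743173 (Saa1), chr7:46751639-46751668 (Saa2), chr7:46715757-46715786 (Saa3) and chr7:46732637-46732666 (Saa4, nearer match).
Saa1: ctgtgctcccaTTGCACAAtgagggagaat
Saa2: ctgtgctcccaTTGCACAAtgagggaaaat
Saa3: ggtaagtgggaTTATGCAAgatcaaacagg
Saa4: accaggaaggaTTGAGCAAgagggactctg
The match began 182 bases before the start in Saa1, 183 in Saa2, 99 in Saa3 and 52 in Saa4, which had a further match 245 bases before its start. The NF-kappaB consensus was matched in Saa1 alone, 91 to 82 bases before the start, and in 9.55% of all promoters. The windows of Saa1 and Saa2 were 94.8% identical, and the stretch of the Saa1 match (chr7:46743052-46743081, match in capitals) differed from that of Saa2 (chr7:46751731-46751760, differing bases in capitals) at 2 bases.
Saa1: tgacttgtctGGAGTTTTCCcaagggtggt
Saa2: tgacttgtctggagtAttAccaagggtggt
These letters therefore do not match in Saa2. A match is a description of letters and not of binding.

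The pentraxin genes shared another motif. The HNF1 palindrome (GTTAAT, any base, then ATTAAC) with up to 3 mismatches was found in the 250 bases of Apcs, with 3 matches, and of Crp, with 2, and in 7.58% of all promoters. The STAT letters TTCNNNGAA matched in Apcs alone (7.02% of all promoters) and the TATA box TATAAA in Crp alone (7.59%). The Apcs window is shown whole, since it held both the STAT match and the 3 HNF1 matches, in capitals in that order, on the minus strand at chr1:172895055-172895304.
Apcs: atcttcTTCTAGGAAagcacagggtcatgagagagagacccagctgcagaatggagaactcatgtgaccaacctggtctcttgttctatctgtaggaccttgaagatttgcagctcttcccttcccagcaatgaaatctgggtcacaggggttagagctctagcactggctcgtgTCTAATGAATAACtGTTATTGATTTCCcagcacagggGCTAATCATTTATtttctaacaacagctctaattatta
The Saa4 window is also shown whole, since it held both of the C/EBP matches named above. Like Saa2 and Saa3 it had matches to no other motif searched. It lies at chr7:46732604-46732853 on the minus strand.
Saa4: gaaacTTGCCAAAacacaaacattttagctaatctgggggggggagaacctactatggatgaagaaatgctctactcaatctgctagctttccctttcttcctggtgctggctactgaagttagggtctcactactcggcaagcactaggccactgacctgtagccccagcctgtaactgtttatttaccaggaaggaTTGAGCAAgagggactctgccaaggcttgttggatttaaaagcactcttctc
The table's start of Saa1 and of Saa3 lies inside the outer limits of the gene given above, since RefSeq also holds longer models of them, and for these genes the windows refer to the start in the table.

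Of the genes next to the amyloid A cluster, 1 was called. RefSeq lists 10 other genes within 100 kb of it, of which 6 were tested. It was Ldha, which encodes lactate dehydrogenase A and lies at the edge of that range, was called, with log2 fold changes of 1.38 in intra-C (adjusted p = 0.0232, edgeR) and 2.03 in intra-S livers (adjusted p = 0.00782, edgeR) against sham. Saal1 and Hps5, the tested genes nearest on each side, had log2 fold changes of -0.33 and -0.23 in intra-C and 0.03 and -0.48 in intra-S livers, and neither was called. Around the pentraxin genes 8 of 11 other genes were tested, and the lncRNA Gm35686 alone was called, with log2 fold changes of 4.02 and 4.21. Its levels were low, at 0.123 and 0.136 CPM in sham livers and between 1.94 and 2.70 CPM in the other livers. Gm19059, a pseudogene between Crp and Apcs with at most 2.35 CPM, had log2 fold changes of 3.01 and 2.46. It narrowly missed a call (adjusted p = 0.0502 and 0.0664, edgeR). The lowest log2 fold changes among the tested neighbours were -0.85 in intra-C and -1.35 in intra-S against sham. An antisense or overlapping lncRNA, Gm31882, crosses the longer Saa3 model but was not tested, with at most 0.278 CPM in any liver. The strand setting of the counting is not given in the sources used here.

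**Figure D4:**
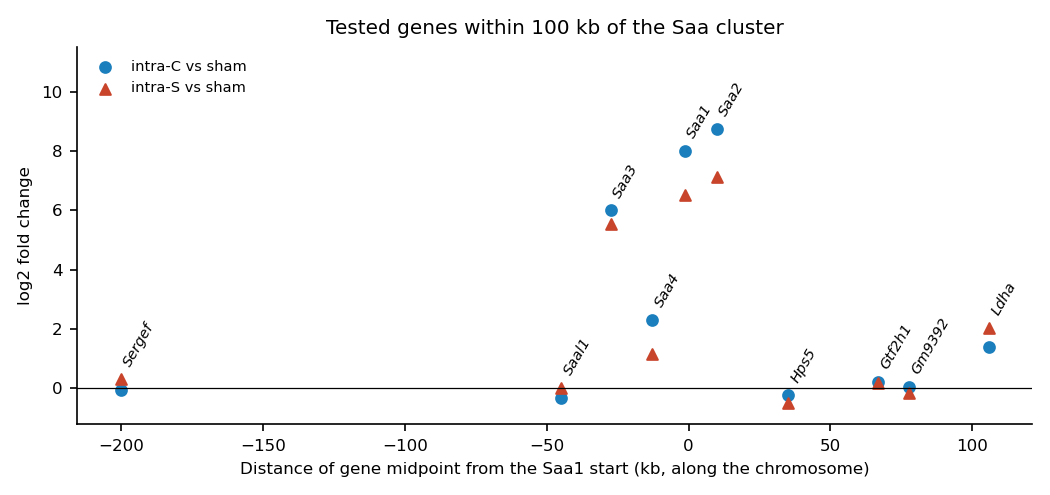
Log2 fold change against sham of the tested genes within 100 kb of the amyloid A cluster, by the distance of each gene's midpoint from the Saa1 start in kb. Circles are intra-C and triangles intra-S; the Saa genes stand above 0 between Saal1 and Hps5, which lie near 0, and Ldha is the only gene called apart from Saa1, Saa2 and Saa3.

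The pattern over the 6 livers was alike for 5 of the 6 genes. Pearson's r of log2 CPM was 0.995 between Saa1 and Saa2 and at least 0.91 for every other pair among Saa1, Saa2, Saa3, Apcs and Crp, while Saa4 reached 0.53 to 0.73 with them. These values describe 6 livers of 3 groups that share the group difference, and they are no test. Among 9282 other genes with a mean of at least 5 CPM, the genes most like Saa1 were Itga9 (r = 0.997) and Armcx4 (0.996). Those most like Saa2 were Adgre1, the macrophage gene for F4/80 (0.999), Bnip2 (0.998) and Niban1 (0.996). Adgre1 was at 2.51 and 3.80 CPM in sham livers, 29.3 and 35.9 in intra-C livers and 7.90 and 29.0 in the intra-S livers. Most like Saa3 were Capza1 and Prkcb (both 0.997) and Snx25 (0.996). For Apcs they were Rcn1 (0.998), Wfdc17 (0.997) and Serping1, the gene of C1 inhibitor (0.996), and for Crp they were Gtf3c4 (0.998), Cd55 (0.997) and Nsd2 (0.994).

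The genes most like Saa4 were Pdia4 (r = 0.999), a protein disulfide isomerase, Sdf2l1 (0.997), a chaperone partner, and Sec63 (0.993), a part of the protein import machinery of the endoplasmic reticulum. Pdia4 was at 168 and 160 CPM in sham livers, 256 and 287 in intra-C livers and 106 and 252 in the intra-S livers. Sdf2l1 was at 23.7 and 19.7 CPM in sham livers, 41.0 and 44.2 in intra-C livers and 11.6 and 39.5 in the intra-S livers. These genes were picked for this likeness over the same 6 livers, so that their sharing the order of Saa4, with intra-S replicate 1 lowest, is a description and no separate result. Neither was called in any comparison.

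**Figure D5:**
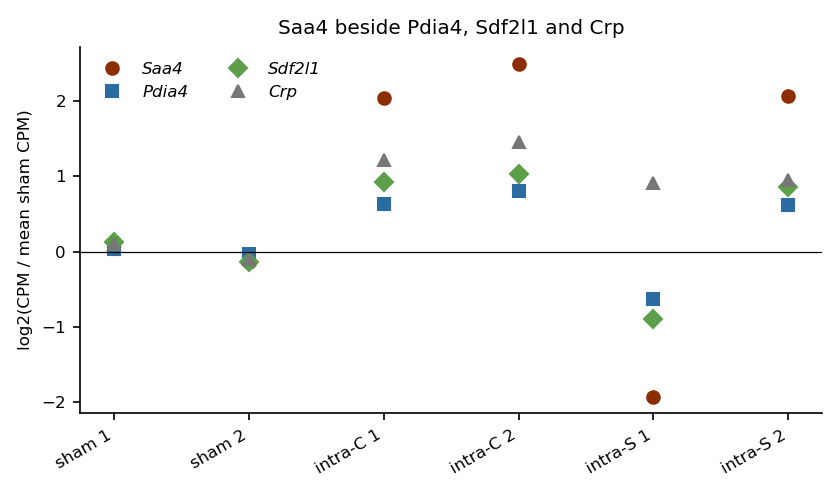
Log2 of CPM relative to the sham mean for Saa4, Pdia4, Sdf2l1 and Crp in each liver; each point is 1 liver. Pdia4 and Sdf2l1 were picked for their likeness to Saa4, and all 3 lie below the sham mean in intra-S replicate 1 and above it in the other tumor-bearing livers, whereas Crp lies above it in all 4.

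The partners of these genes were followed as lists, and no gene of any list was called between intra-S and intra-C by edgeR, so that a call in only 1 of the comparisons with sham does not show a difference between them. DESeq2 called 2 inducers, 1 transducer, 1 complement gene and 2 other acute-phase genes lower in intra-S than in intra-C livers, and 2 HDL genes, 2 genes known to fall in the acute phase, 3 fibroblast and 5 erythroid markers higher. Of the other markers it called 1 each of hepatocytes, neutrophils, endothelial cells and adipocytes higher and 1 of hepatocytes lower. Cytokines and receptors that induce the 6 genes made up a list of 19, of which 15 were tested. In the intra-C livers 6 were called higher and 1 lower than in sham, and in the intra-S livers 4 were called higher and 2 lower. Il1b had log2 fold changes of 3.78 and 3.47 and Il1a 2.60 and 3.39 in intra-C and intra-S livers. Osmr, the receptor subunit for oncostatin M, had 3.24 and 2.68. Il1r1 rose in the intra-C livers by 2.39 on the log2 scale (adjusted p = 0.0236, edgeR) and was at 1.00 in the intra-S livers (adjusted p = 0.136, edgeR). Lifr fell by 1.04 in the intra-C and by 1.78 in the intra-S livers on the log2 scale. Outside the rule for naming genes, Il6st (gp130) is given for its role: it was at 43.4 and 38.2 CPM in sham livers, 181 and 203 in intra-C livers and 59.6 and 96.6 in the intra-S livers, and was called in intra-C alone (2.24, adjusted p = 0.0130, against 0.94, adjusted p = 0.0778, edgeR). The difference between these changes was not called (adjusted p = 0.285, edgeR). Il6 itself, named for the same reason, had 2 and 0 counts in sham, 10 and 2 in intra-C and 48 and 21 in intra-S livers. Its log2 fold changes of 2.60 (adjusted p = 0.288, edgeR) and 5.14 (adjusted p = 0.0601, edgeR) in intra-C and intra-S against sham did not pass the test.

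Among 22 tested transducers of the STAT3, NF-kappaB and C/EBP routes, 4 were called higher and 1 lower in the intra-C livers, and edgeR called 3 higher and 0 lower in the intra-S livers, where 2 were lower by DESeq2, 1 without TMM and 2 at unadjusted p under 0.05. Stat3 was at 67.0 and 62.4 CPM in sham livers, 229 and 226 in intra-C livers and 134 and 130 in the intra-S livers, with log2 fold changes of 1.82 and 1.03 (adjusted p = 0.00785 and 0.0236, edgeR). Socs3, the feedback inhibitor that STAT3 induces, was at 1.40 and 2.22 CPM in sham livers, 36.1 and 24.1 in intra-C livers and 9.86 and 31.0 in the intra-S livers. Socs3 was thus lowest among the tumor-bearing livers in intra-S replicate 1, as were the 6 genes, whereas Stat3 was not. Bcl3, an NF-kappaB partner, rose in the intra-C livers (2.07, adjusted p = 0.0293, edgeR), Cebpa fell there by 1.70 on the log2 scale, and Cebpd rose in the intra-S livers (2.76, adjusted p = 0.0421, edgeR). Hnf4a, the most abundant of the list, was not called.

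Receptors through which the encoded proteins act came next. Of 12 tested, 7 were called higher and none lower in each comparison with sham. Fpr2, the formyl peptide receptor that binds serum amyloid A, was at 0.443 and 0.385 CPM in sham livers, 3.36 and 3.25 in intra-C livers and 8.31 and 3.83 in the intra-S livers. Fcgr3 and Fcgr4, of the Fc receptor family through which pentraxins act on phagocytes, had log2 fold changes of 3.08 and 3.04 in intra-C and 3.19 and 3.17 in intra-S livers, and Fpr1 had 1.98 and 2.11. Scarb1, the HDL receptor and the most abundant of the list, was not called. The Fpr and Fcgr receptors are known from myeloid cells, whose marker levels stand above, and the part of those cells was not tested. With library totals not scaled by TMM, 4 of the 12 were called in each comparison.

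HDL genes did not share a direction. Of 17 tested, edgeR called 0 higher and 4 lower in the intra-C livers, and 2 higher and 4 lower in the intra-S livers. In the intra-C livers 6 were higher at an unadjusted p under 0.05, and DESeq2 called 4 higher. Hepatic lipase (Lipc) fell by 1.70 and 1.85, the HDL apolipoprotein Apoa2 by 1.34 and 1.17 on the log2 scale in intra-C and intra-S livers. Apoc1 (-1.34) and the paraoxonase Pon1 (-1.01) also fell in the intra-C livers, and Pon1 (-0.89) and Apoc2 (-2.16) in the intra-S livers. Apoa4 rose in the intra-S livers (5.00, adjusted p = 0.0327, edgeR), where replicate 1 held 10201 CPM and replicate 2 held 1099 CPM, against 135 and 218 CPM in sham livers. Apoe, the most abundant of the list, was not called in either comparison.

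Complement partners of the pentraxins rose in part. Of 13 tested, 9 were called higher in the intra-C and 7 in the intra-S livers, and none lower. C1qb had log2 fold changes of 2.28 and 2.38 and C1qc of 2.14 and 2.44; both encode chains of C1q, which binds pentraxins and which macrophages make. C1qa rose by 1.84 in the intra-C and by 2.03 in the intra-S livers. Fcnb, a ficolin of myeloid cells, was at 0 counts in sham livers and between 1.53 and 4.55 CPM elsewhere. C3, the central complement gene, rose in the intra-C livers (1.79, adjusted p = 0.0154, edgeR) and was at 0.65 in the intra-S livers (adjusted p = 0.129, edgeR), where it was the most abundant gene of the list that was not called, and in the intra-C livers that was Cfb.

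Most other acute-phase genes rose. Of 24 tested, 21 were called higher and none lower in the intra-C livers, and 22 higher and 1 lower in the intra-S livers. Their median log2 fold changes were 2.97 and 2.64. Lcn2, an iron-sequestering lipocalin, had log2 fold changes of 8.13 and 8.35, and was at 1629 CPM in intra-S replicate 1, close to the 1508 CPM of intra-C replicate 1. Orm2, an orosomucoid, had 6.10 and 5.99, and Cd14 had 4.21 and 4.34. A2m had 3 and 0 counts in sham livers and between 103 and 229 CPM in the other livers. Hamp, the gene of the iron hormone hepcidin, was at 537 and 536 CPM in sham livers, 65.3 and 464 in intra-C livers and 0.437 and 0.981 in the intra-S livers, and was the gene that was lower there (-9.54, adjusted p = 0.00965, edgeR). The most abundant genes of the list that were not called were Mt1 in the intra-C and Steap4 in the intra-S livers. Of 10 genes known to fall in the acute phase, 1 was called higher (Fetub, 1.23) and none lower in the intra-C livers, and 4 were called higher and 1 lower in the intra-S livers. In the intra-C livers the split depended on the fit, with 0 higher and 1 lower without TMM, 3 higher and 1 lower by DESeq2, and 4 higher and 3 lower at unadjusted p under 0.05. In the intra-S livers Serpina6, the gene of corticosteroid-binding globulin, was the lower one (-5.44), and the higher ones included Fetub (1.66) and Ahsg (1.36). Alb was not called in either comparison. No further pentraxin gene could be followed, since Nptx1 was the only one of 7 in the table and did not pass the filter.

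Markers of some other cells also differed from sham. Of the 11 macrophage and Kupffer cell markers, 10 were called higher in the intra-C and 9 in the intra-S livers, and all 12 neutrophil markers were called higher in both. Of 8 monocyte markers, 3 and 4 were called higher, of 8 endothelial markers 4 and 4, of 10 fibroblast and stellate cell markers 0 and 3, of 8 cholangiocyte and epithelial markers 0 and 2, of 2 tested adipocyte markers 0 and 1, and of 7 erythroid markers 0 and 7. No T and NK cell (7 tested), B and plasma cell (6 tested) or exocrine pancreas marker (2 tested) was called by edgeR, while DESeq2 called 1 T and NK cell marker and 1 exocrine pancreas marker higher in the intra-S livers and 1 exocrine pancreas marker lower in the intra-C livers. At an unadjusted p under 0.05, these lists held 2 higher T and NK cell markers and 1 higher pancreas marker in intra-S, and 2 lower B and plasma cell markers and 1 lower pancreas marker in intra-C livers. Of 12 hepatocyte markers, edgeR called 0 in the intra-C livers, where an unadjusted p under 0.05 was met by 2 higher and 2 lower ones and DESeq2 called 1 higher and 2 lower, and Asgr2 and Cyp2e1 were called lower in the intra-S livers. The intra-S replicate 1 liver, which was lowest for the 6 genes among the tumor-bearing livers, had the highest hepatocyte marker sum (183413 CPM, of which Alb made up 156594 CPM, while Cyp2e1 and Asgr2 were lowest there) and the highest neutrophil marker sum (1110 CPM) of the 6 livers, and the lowest macrophage marker sum of the tumor-bearing livers (709 CPM). This liver also had the highest marker sums of erythroid (1726 CPM), cholangiocyte and epithelial (560 CPM), endothelial (432 CPM) and adipocyte lists (149 CPM). The sums of the remaining lists were not highest there. The part of these markers in its low Saa1, Saa2 and Saa4 levels was not tested.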

How the data were processed

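Polyadenylated RNA of 6 whole livers was analyzed. The authors aligned the reads with HISAT2 (2.1.0) to mm10, counted uniquely aligned exon reads with featureCounts (Subread 2.0.6) and deposited a raw count per gene and liver. TPM values were deposited beside them and scale the counts by gene length and library total. The annotation, the strand setting and the read length are not given in the sources used here. Both tables list 20140 genes, and every value column was matched to a liver by name.

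From there, edgeR 4.0.16 in R 4.3.3 was used with TMM, filterByExpr (count minimum 10), a quasi-likelihood fit of group to all livers, and p-values were adjusted by Benjamini-Hochberg over 16370 genes. Standard errors are the fold change over the square root of F, and intervals use the degrees of freedom of the fit. Log2 CPM values use a prior count of 2. Alternatives were DESeq2 1.42.0, limma 3.58.1 on log2(TPM + 1) and log2(TPM + 0.1), other scalings and filters, 2 groups only, a replicate block, a robust spread, Saa1 and Saa2 summed, and each liver left out. The procedure was tested on simulated data with known changes. Sequences were read from RefSeq (GRCm38.p6) and GENCODE M21 with Python 3.11.15 and Biopython 1.88.

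The genes and lists were chosen with earlier results of these data known, and the motif letters after the sequences were seen. By rule, the text names the 6 genes, for each of them up to 3 genes with the most similar pattern, and from each list that is not of a cell type up to 4 called genes with the largest change per comparison with sham and the gene with the highest mean CPM that was not called. Further genes, neighbours among them, were named outside that rule. An item that the rule also names is not reported here.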

Additional observations from a re-analysis of the deposited data

How the results depend on the processing

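Of the 6 genes, 5 were called higher in intra-C against sham under DESeq2, limma, both other edgeR scalings, both filters, the robust spread and the replicate block, and 6 with only those groups in the fit. In intra-S against sham, 3 were called higher with library size without TMM, 3 with limma on log2(TPM + 1), 3 with limma on log2(TPM + 0.1) and 2 with only those groups in the fit, against 5 in the fit over all livers. Of 20140 genes, DESeq2 called 1662 higher and 1049 lower in intra-C, and 2003 and 1397 in intra-S against sham. Of 16370 genes, the edgeR fit over all livers called 806 and 389, and 1110 and 646. With Saa1 and Saa2 as 1 row, 4 of 5 rows were called higher in each comparison with sham. The labels give the groups the same replicate numbers, but same-numbered livers deviated together only in part (correlations of -0.03, 0.14 and 0.11 over 9283 genes), so that a pairing beyond the shared number was not established. The replicate block left 5 called in intra-C and 4 in intra-S against sham, where Crp was lost (0.94, adjusted p = 0.0629, edgeR). The robust spread lost Saa2 there (adjusted p = 0.0521, edgeR).

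With each liver left out in turn, the number called higher ranged from 0 to 6 in intra-C against sham and from 0 to 6 in intra-S against sham, the number called lower from 0 to 1 in intra-S against sham (Saa4) and from 0 to 4 in intra-S against intra-C. It was 0 without either sham liver, where 0 genes were called in the whole table, and in intra-C against sham also 0 without either intra-C liver, which left 2 in intra-S against sham. The lone liver left in a group was assumed to vary like the other groups, and fewer livers stand behind the spread. The log2 fold change of Saa4 in intra-S against sham reversed to -0.21 and -0.22 with limma (pseudocounts 1 and 0.1) and spanned -1.93 (without intra-S replicate 2) to 2.08 (without intra-S replicate 1) with livers left out. In intra-S against intra-C, Saa3 ranged from -1.67 (without intra-S replicate 2) to 0.75 (without intra-C replicate 2), being 0.21 without intra-S replicate 1, and Apcs ranged from -0.95 (without intra-S replicate 2) to 0.051 (without intra-S replicate 1). The cause was not tested. Genes called higher over the whole table ranged from 0 to 2548 in intra-C and from 0 to 3010 in intra-S against sham across these settings, and genes called lower from 0 to 2223 and from 0 to 2683.

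DESeq2 called more genes of most lists, among them 7 and 6 transducers, 7 and 8 inducers and 4 and 4 HDL genes higher in intra-C and intra-S against sham, against 4 and 3, 6 and 4, and 0 and 2 with edgeR. Library size without TMM moved the median log2 fold change of all genes to -0.25 in intra-C and -0.23 in intra-S against sham. Each of the 6 genes kept its direction there. On such library totals the mean of Crp was 245 CPM in sham and 388 CPM in intra-S livers. The TMM-scaled means were 217 and 414 CPM, and both shifts exceeded the SD of the TMM-scaled values (21.4 and 8.11 CPM). On library totals the intra-S livers themselves lay further apart, at 361 and 415 CPM. The other means moved by less than 1 SD of the TMM-scaled values. The 4.90-fold difference in the mean of Saa4 between intra-C and sham passed with only those groups or with 1 intra-S liver beside them in the fit, and not with both intra-S livers in it.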
